A study of Mus musculus with 16 samples.

Results

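A set of 65 genes, out of 13842 in the deposited count table, was read almost only in 1 of 2 inbred mouse strains. Of these, 45 were read in DBA/2J hearts and 20 in C57Bl6/N hearts (DBA and C57 in the following). A gene was chosen when its mean over the 8 libraries of 1 strain was at least 1 CPM (counts per 1000000 counts of the library) and its means in both strains, each with 0.02 added, stood at a ratio of at least 16. The thresholds were passed by 76 genes, and 11 of them were left out by symbol (H2-, Ifi, Oas, Trim12, Trim30, Pcdh, C1r, C1s and Hamp genes, Spp1, Il1rn and P4ha3). The difference between strains is therefore what chose these genes, and it is described here with no test. The means took control and ligated libraries together. Ligation within a strain was tested, but the choice bears on it for genes that reach the thresholds through 1 of the groups: 8 of the 65 would not be chosen from control libraries alone and 11 not from ligated libraries alone.

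PolyA RNA came from ventricular tissue of 16 female mice aged 3 months, in 4 groups of 4: DBA controls, DBA ligated mice, C57 controls and C57 ligated mice. Ligated mice had a coronary artery tied off permanently and gave tissue 2 weeks later, from a part the labels call remote, and control mice were left untreated, so an effect of surgery and an effect of the infarct cannot be told apart. The labels name no engineered allele and no agent in any group. They give 1 strain for all C57 mice, but the names of the control libraries carry C57Bl-6NCR and those of the ligated libraries C57Bl-6N, so what these names stand for and ligation cannot be told apart within C57. The design text names septum and right ventricle as the tissue, whereas the sample labels name septum and left ventricle. The defining markers of ventricular muscle (6 of 6 in the table, among them Myh6 and Myl2) summed to between 56469 and 89649 CPM in every library. Library totals ran from 4.92 to 22 M (M, 1000000 counts), and 3 libraries stood under 9 M (DBA controls 3 and 4 and C57 control 1). Among the DBA ligated libraries, 3 carry mouse numbers in the table that differ from the labels, and these are named S40, S41 and S42. S41 and S42 stand apart from the other DBA libraries in reads of Mlana, Pax1 and Neto1 (below). Whether these mice came from the same source as the other DBA mice was not tested. Ligation counts, and the folds or adjusted p of some genes, are also given without both.

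Inbred strains are homozygous across nearly the whole genome, and they differ from each other in coding sequence, in the number of copies of genes in tandem families and in the regulation of single genes. DBA and C57 are among the oldest laboratory strains, and their class I and Ly49 receptor clusters are known to differ in haplotype. The mouse reference assembly is of C57 origin, so DBA reads were placed on the sequence of the other strain; the part of this in the values was not tested.

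**Figure D1:**
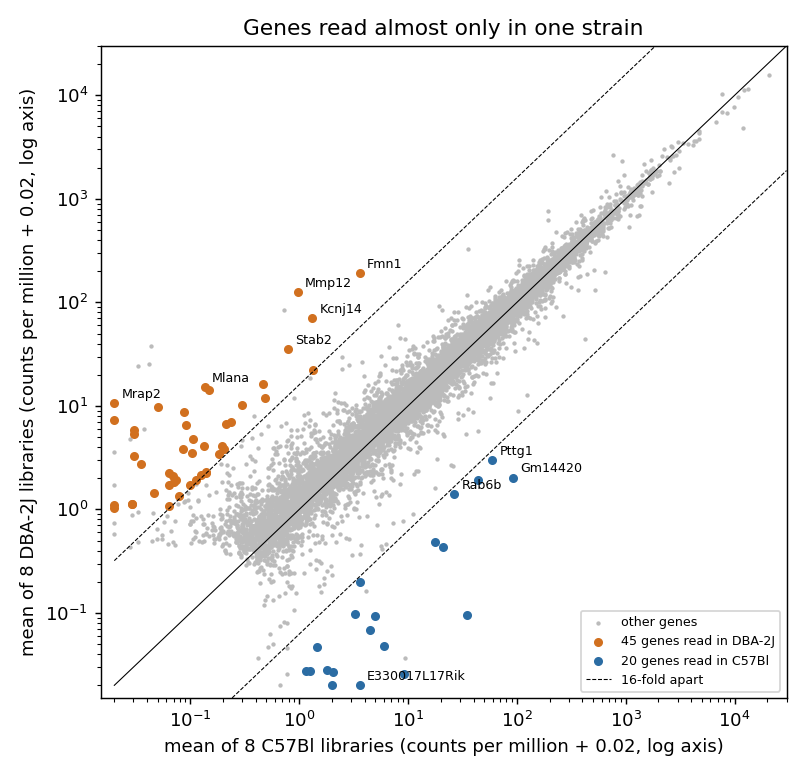
Mean CPM of each of 13842 genes over 8 DBA libraries against its mean over 8 C57 libraries, both with 0.02 added and on log axes; orange and blue points are the 45 and 20 chosen genes, and dashed lines mark a ratio of 16. Grey points beyond the dashed lines were left out by symbol or had a mean under 1 CPM in both strains.

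Some of these genes have a near-identical copy elsewhere in the genome, and their counts are uncertain for that reason. Of the 61 genes that GENCODE M21 names, 12 (19.7%) had a copy in another gene, meaning at least 95% identity over at least 50% of their longest transcript, against 2.45% of the 13348 matched genes of the whole table. The coding sequences of Trim34b and Trim34a, a pair of tripartite motif genes on chromosome 7, are identical at 1425 of 1451 aligned bases (98.2%), and those of Selenbp2 and Selenbp1, a pair of selenium binding proteins on chromosome 3, at 1398 of 1416 (98.7%). Stretches of 100 coding bases (GRCm38, both genes of each pair on the plus strand) are given below. They lie at positions 53 to 152 of the Trim34 pair and 350 to 449 of the Selenbp pair, counted from the first base of the start codon. No gap-free stretch of this length holds more differing bases in its pair, so they are not typical of the whole coding sequence. Capitals mark the 4 bases at which the genes of a pair differ.
Trim34b: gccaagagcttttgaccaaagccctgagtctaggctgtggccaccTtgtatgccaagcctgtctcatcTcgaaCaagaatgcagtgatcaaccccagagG
Trim34a: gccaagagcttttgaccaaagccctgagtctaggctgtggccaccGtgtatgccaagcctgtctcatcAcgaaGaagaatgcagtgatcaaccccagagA
Selenbp2: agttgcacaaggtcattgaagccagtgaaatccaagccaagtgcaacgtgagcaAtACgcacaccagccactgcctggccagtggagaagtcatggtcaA
Selenbp1: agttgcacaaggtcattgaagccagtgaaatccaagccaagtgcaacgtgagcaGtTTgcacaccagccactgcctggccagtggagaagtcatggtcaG

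Trim34b was read at a mean of 1.34 CPM in DBA and 0.0579 CPM in C57, while its copy Trim34a ran the other way, at 1.90 CPM in DBA and 7.24 CPM in C57. Selenbp2 had means of 3.52 CPM in DBA and 0.0826 CPM in C57, beside 53.5 and 75.6 CPM for Selenbp1. The pseudogene Tmem181c-ps and Tmem181a showed the same opposite order, with Tmem181a at 7.51 CPM in DBA and 17.5 CPM in C57. Other copies were higher in the same strain as their partner: C4b, which encodes complement component C4, stood at 92.2 CPM in DBA and 19.4 CPM in C57, and Serpina3i at 2.12 and 0.206 CPM. Slc28a2, a nucleoside transporter and the copy of Gm14085, was read at similar means in both strains, 29.2 CPM in DBA and 26.0 CPM in C57. For the copies Eno1, Srp54b, Klra3, Gm7030 and Serpina1e no counts are listed under these symbols. How the authors' counting divided reads between the genes of such a pair was not tested.

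Regulatory sequence just upstream of the start was at hand for 43 of the 65 genes from RefSeq (GRCm38.p6). Below are the 250 bases before the start of Fmn1 and Mmp12, the DBA genes with the most reads, and of Rab6b, a C57 gene that fell after ligation; all lie on the plus strand. Capitals mark, on either strand, the TATA box (TATAAA), the CAAT box (CCAAT), the GC box (GGGCGG) and the letters that the factor AP-1 is known to bind (TGANTCA). The windows are chr2:113327486-113327735 for Fmn1, chr9:7347124-7347373 for Mmp12 and chr9:103111824-103112073 for Rab6b.
Fmn1: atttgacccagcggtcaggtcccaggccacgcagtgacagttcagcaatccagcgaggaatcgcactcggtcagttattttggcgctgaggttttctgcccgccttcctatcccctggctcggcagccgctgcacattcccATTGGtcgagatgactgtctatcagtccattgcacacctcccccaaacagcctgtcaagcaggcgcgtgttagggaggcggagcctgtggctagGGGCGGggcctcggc
Mmp12: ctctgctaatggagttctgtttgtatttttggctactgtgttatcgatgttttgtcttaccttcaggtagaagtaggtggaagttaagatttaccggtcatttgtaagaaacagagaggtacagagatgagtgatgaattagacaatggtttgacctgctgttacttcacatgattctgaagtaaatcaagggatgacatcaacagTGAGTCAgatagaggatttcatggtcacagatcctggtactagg
Rab6b: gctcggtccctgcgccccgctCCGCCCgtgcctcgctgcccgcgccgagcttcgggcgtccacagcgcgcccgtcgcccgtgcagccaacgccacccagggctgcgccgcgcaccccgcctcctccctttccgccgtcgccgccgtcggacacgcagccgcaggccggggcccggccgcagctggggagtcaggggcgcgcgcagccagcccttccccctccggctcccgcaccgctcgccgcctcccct

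Within these windows TATAAA was found in 7 of 43 promoters (16.3%) and in 12.4% of the 32851 promoters of the same length in the RefSeq table. CCAAT was found in 19 of 43 (44.2%) against 33.8% of all, and GGGCGG in 14 (32.6%) against 32.7%. TGANTCA was found in 5 of 43 (11.6%) against 6.75%. These shares are descriptions of the reference sequence, which is not DBA sequence.

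Among the 45 genes read in DBA, those with the most reads were a formin, a protease, a channel and a scavenger receptor. Fmn1, which encodes formin 1, a nucleator of actin filaments, was read at 187, 171, 287 and 346 CPM in DBA controls 1 to 4 and at 134, 153, 126 and 132 CPM in the ligated libraries 1, S40, S41 and S42. Its 8 C57 libraries lay between 1.60 and 4.94 CPM. Mmp12, the macrophage elastase, was read at 58.5, 118, 91.1 and 215 CPM in DBA controls and at 134, 150, 158 and 81.3 CPM in ligated DBA mice, against 0.493 to 1.57 CPM in C57. Every DBA library was far above every C57 library for both genes, and within DBA control 4 was the highest for each.

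Kcnj14, which encodes an inwardly rectifying potassium channel, was read at 68.9, 65.4, 48.5 and 52.2 CPM in DBA controls and at 81.2, 77.0, 83.5 and 82.7 CPM in ligated DBA mice. Its C57 libraries lay between 0.210 and 2.58 CPM. Stab2, a scavenger receptor of sinusoidal endothelium that takes up hyaluronan, ranged from 8.97 CPM in DBA control 3 to 57.8 CPM in ligated library 1, and from 0.364 to 1.07 CPM in C57. Pianp, a neural ligand of the receptor PILR alpha, lay between 17.8 and 25.7 CPM in DBA and Atp6v0d2, a subunit of the proton pump of osteoclasts and macrophages, between 7.63 and 32.7 CPM. Divided by the gene length in the table, the order of DBA levels changed to Mmp12 (34.9 CPM per kb), the melanocyte gene Mlana (33.0 CPM per kb), Kcnj14 (26.5 CPM per kb) and Fmn1 (12.9 CPM per kb).

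Mmp12 and Atp6v0d2 are genes of macrophages, and in bulk tissue more cells of a type and more RNA per cell cannot be told apart. The 4 macrophage markers Cd68, Csf1r, Adgre1 and Mrc1, all in the table, summed to 154 to 195 CPM in DBA controls, 202 to 228 CPM in ligated DBA mice, 107 to 114 CPM in C57 controls and 130 to 196 CPM in ligated C57 mice. Within the sum only Cd68 was looked at singly. It had the group means 36.8 CPM in DBA controls, 33.7 CPM in ligated DBA mice, 8.91 CPM in C57 controls and 13.0 CPM in ligated C57 mice. Cd68 does not stand for the list, since in DBA the sum was higher after ligation and the mean of Cd68 was not. Between strains, too, the sums of controls stood closer in proportion than the control means of Cd68. The sums were 154 to 195 CPM in DBA against 107 to 114 CPM in C57, beside 36.8 and 8.91 CPM for Cd68. Lgals3 and Itgax, macrophage genes chosen after their values were seen, had group means of 19.3 and 14.0 CPM in DBA controls, 30.2 and 23.2 CPM in ligated DBA mice, 1.38 and 0.992 CPM in C57 controls and 4.36 and 1.46 CPM in ligated C57 mice. The part of macrophages in the level of Mmp12 was not tested. Mmp3, the neighbouring metalloprotease gene, stood at 29.3 CPM in DBA and 2.47 CPM in C57.

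A pair of mast cell proteases belonged to the 45. Mcpt2, a chymase known from mucosal mast cells, lay between 4.94 and 9.11 CPM in the 8 DBA libraries and had 0 reads in all 8 C57 libraries, which put it at least 269-fold higher in DBA when 3 counts are allowed over the C57 group. Mcpt9, whose gene lies 11.6 kb away on chromosome 14, lay between 0.588 and 1.57 CPM in DBA and had 1 read in C57. Other mast cell genes in the table (Cpa3, Tpsb2, Cma1, Mcpt4 and Kit, 5 of 7 listed) summed to 16.8 to 25.1 CPM in DBA controls, 32.7 to 42.6 CPM in ligated DBA mice, 12.7 to 14.0 CPM in C57 controls and 18.1 to 23.2 CPM in ligated C57 mice. Most of each sum was Kit, a receptor that other cells also express, with group means in the same order of 10.9, 18.5, 8.71 and 15.9 CPM. The other 4 had higher means in DBA: Cpa3 stood at 3.70, 4.19, 1.23 and 1.30 CPM, Tpsb2 at 1.21, 2.62, 1.03 and 1.00 CPM, Cma1 at 2.14, 4.86, 1.01 and 1.18 CPM and Mcpt4 at 3.38, 6.08, 1.59 and 1.23 CPM. None was at 0 in C57. The part of mast cells in the reads of Mcpt2 and Mcpt9 was not tested.

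Protease inhibitors of the serpin family formed a further DBA group. Serpina1b, an alpha-1-antitrypsin gene of mouse, was the steadiest of the 45 (coefficient of variation, SD over mean, 0.115), between 7.49 and 9.89 CPM in DBA and between 0 and 0.196 CPM in C57. Serpina3h, annotated by GENCODE as a pseudogene, was read at 9.84, 15.6, 10.02 and 7.52 CPM in DBA controls and at 16.2, 15.2, 20.6 and 19.6 CPM in ligated DBA mice, against at most 0.365 CPM in C57. Their genes lie 510 kb apart on chromosome 12. Both have copies, Serpina1e at 96.1% and Serpina3i at 96.9% identity, so their counts are uncertain.

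Mrap2, an accessory protein of melanocortin receptors, had the most extreme ratio of all 65 genes. It was read at 11, 12.2, 7.12 and 19.9 CPM in DBA controls, at 9.59, 13.3, 5.27 and 5.92 CPM in ligated DBA mice, and at 0 in every C57 library, at least 385-fold lower. Gm15446 and Tmprss4, a membrane serine protease, were likewise at 0 in all C57 libraries (at least 39.8-fold and 37.0-fold higher in DBA). The solute carriers among the 45 were Slc25a31, the ADP/ATP carrier known from testis, between 1.71 and 6.34 CPM, and Slc7a11, the cystine and glutamate exchanger, between 0.870 and 3.46 CPM in DBA. Chil1, a chitinase-like lectin, lay between 3.30 and 12.1 CPM in DBA and between 0 and 0.573 CPM in C57.

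Among the 20 genes read in C57, 10 bore clone or model names. Gm14420 was read at 105, 97.9, 92.9 and 103 CPM in C57 controls and at 76.3, 76.5, 86.7 and 92.3 CPM in ligated C57 mice, against 0.406 to 6.91 CPM in DBA. Pttg1, which encodes securin, the inhibitor of separase at the onset of anaphase, was read at 64.6, 68.2, 69.7 and 70.1 CPM in C57 controls and at 42.7, 59.7, 52.4 and 49.8 CPM in ligated C57 mice. Its DBA libraries lay between 1.32 and 3.95 CPM. Rab6b, a small GTPase of Golgi transport, was read at 33.3, 32.3, 29.0 and 27.6 CPM in C57 controls and at 25.1, 25.2, 19.8 and 21.0 CPM in ligated C57 mice, against 0.870 to 2.21 CPM in DBA. None of the C57 libraries overlapped a DBA library for these genes.

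The non-coding 2610507I01Rik lay between 18.0 and 22.7 CPM, with a coefficient of variation of 0.0755 over 8 libraries, the lowest of the 20. Olfr1033, an odorant receptor gene, lay between 7.65 and 11.5 CPM in C57 and had 1 read in DBA. The long non-coding E330017L17Rik lay between 2.21 and 4.42 CPM and Ifltd1, named for an intermediate filament tail domain, between 0.583 and 4.83 CPM (coefficient of variation 0.861, the highest of the 20), and both had 0 reads in all 8 DBA libraries (at least 138-fold and 77.8-fold higher in C57). 5830417I10Rik, described as a pseudogene of Gon4l, lay between 36.3 and 53.8 CPM in C57 and between 0.609 and 2.40 CPM in DBA, where Gon4l itself had group means of 38.4 and 39.4 CPM against 27.5 and 26.4 CPM in C57. Per length, Pttg1 (34.3 CPM per kb) and Gm14420 (19.6 CPM per kb) led the C57 genes. Klra9, a Ly49 receptor of natural killer cells with the copy Klra3, lay between 1.30 and 3.65 CPM in C57 and had 1 read in DBA. Srp54a, a subunit of the signal recognition particle whose copy Srp54b is 99.6% identical, lay between 2.31 and 4.56 CPM in C57.

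**Figure D2:**
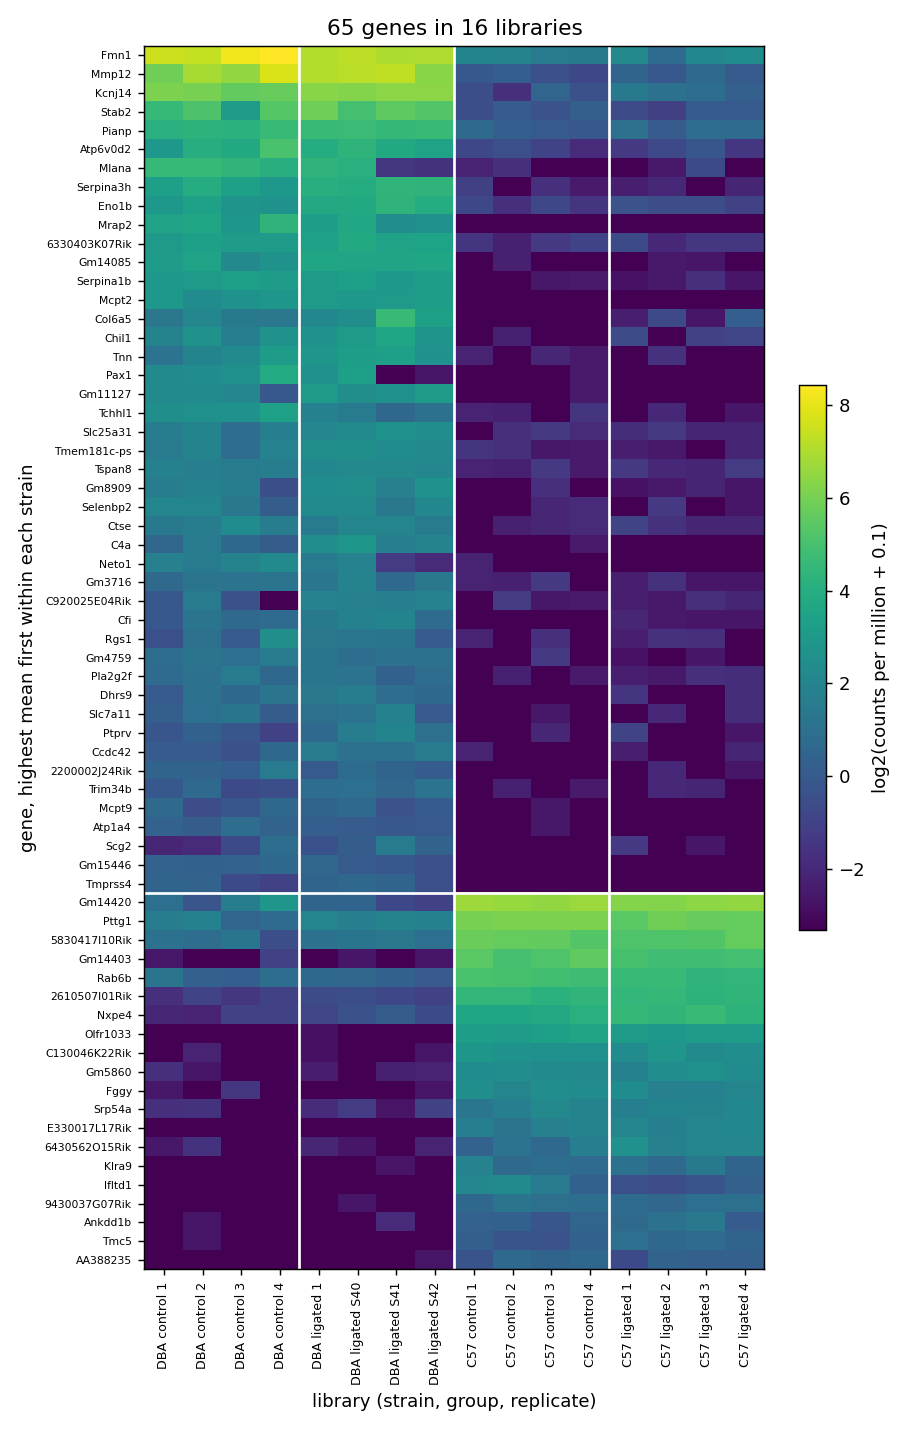
log2(CPM + 0.1) of 65 genes (45 read in DBA above the white line, 20 read in C57 below it) in 16 libraries, in 4 groups of 4. The 2 blocks of light cells are what the genes were chosen for; the dark cells of Mlana, Pax1 and Neto1 in the DBA ligated libraries S41 and S42 are exceptions inside the DBA block.

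Over the 8 libraries of the reading strain, controls and ligated mice together, the DBA genes varied more than the C57 genes. Whether all genes of the table differ between strains in this way was not looked at. The median coefficient of variation over 8 libraries was 0.413 for the 45 DBA genes, from 0.115 to 1.05, and 0.196 for the 20 C57 genes, from 0.0755 to 0.861. Library DBA ligated S41 was the highest of the 8 DBA libraries for 12 of the 45 genes and the lowest for 7, and DBA control 4, the shallowest library, was the highest for 11 and the lowest for 9. DBA control 1 was the lowest for 13. In the strain with low reads, 46.9% of the values were 0, 6 genes had 0 reads in all 8 libraries and 13 had 1 to 3 reads. For 60 genes the 8 libraries of 1 strain lay above all 8 of the other. The exceptions were the DBA genes Mlana, Pax1, C920025E04Rik, Ptprv and Scg2, a granin of secretory granules whose DBA libraries ran from 0.143 to 2.82 CPM. The choice by strain ratio largely fixes this separation and the low reads in the other strain. The same counts were not made over all genes, so nothing is read from them.

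Mlana, Pax1 and Neto1 had reads in 6 DBA libraries and next to none in DBA ligated S41 and S42. Mlana, a melanosome protein of melanocytes, was read at 23.1, 23.6, 20.8 and 16.7 CPM in DBA controls, at 19.7 and 17.3 CPM in ligated libraries 1 and S40, and at 0.266 and 0.232 CPM in S41 and S42. Pax1, a paired box transcription factor of the sclerotome and thymus, was read at 4.85, 5.05, 5.94 and 14.6 CPM in DBA controls, at 6.0 and 9.89 CPM in ligated 1 and S40, and at 0 and 0.0580 CPM in S41 and S42. Neto1, an auxiliary subunit of glutamate receptors, was read at 3.42, 2.88, 3.69 and 4.88 CPM in DBA controls, at 2.82 and 3.65 CPM in ligated 1 and S40, and at 0.320 and 0.174 CPM in S41 and S42. The genes lie on chromosomes 19, 2 and 18. In S41 and S42, Mlana and Pax1 stood at the level of the C57 libraries, whose highest values were 0.522 and 0.0821 CPM.

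The other melanocyte genes measured were not near 0 in S41 and S42. Of 6 listed melanocyte genes 3 were in the table, and their sum lay between 89.6 and 99.5 CPM in DBA controls, 69.2 and 86.0 CPM in ligated DBA mice, 95.6 and 106 CPM in C57 controls and 81.6 and 91.9 CPM in ligated C57 mice, mostly from Mitf. Dct, a pigment enzyme, was read at 4.21 and 3.25 CPM in S41 and S42 against 2.36 and 4.18 CPM in ligated 1 and S40. Mitf, the master regulator of melanocytes that other cells also express, was read at 71.9 and 64.3 CPM there against 80.1 and 79.1 CPM in ligated 1 and S40, and Sox10, a neural crest factor, at 1.97 and 1.62 CPM against 2.54 and 2.72 CPM. The ligation folds of Mlana, Pax1 and Neto1 had a wide error and were not called. The log2 fold change was -1.34 ± 0.72 (SE; edgeR adjusted p = 0.172) for Mlana, -1.03 ± 0.85 (0.384) for Pax1 and -1.22 ± 0.60 (0.147) for Neto1. Without S41 the values were -0.93 for Mlana, -0.60 for Pax1 and -0.86 for Neto1, and without S42 they were -0.93, -0.62 and -0.84. Without both the values were -0.36 for Mlana, -0.03 for Pax1 and -0.33 for Neto1, and without S40 the fold of Pax1 was -1.94. S41 and S42 are also 2 of the 3 libraries whose mouse number in the table differs from the labels.

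Ligation was tested within the strain that reads each gene, with edgeR's quasi-likelihood test over all 13504 tested genes and Benjamini-Hochberg adjustment, and a gene is called at an adjusted p under 0.05. In DBA, 9 of 45 genes (20%) were called, beside 24.9% of all tested genes. Of these 7 were higher after ligation (11.1% of all tested genes were) and 2 lower (13.8%). In C57, 6 of 20 genes (30.0%) were called, beside 13.3% of all, with 2 higher (7.24% of all) and 4 lower (6.06%). The median log2 fold change was 0.22 for the 45 genes against 0.03 for all genes in DBA, and -0.30 for the 20 genes against 0.02 in C57. Since Ptprv, Ccdc42 and C920025E04Rik, among the 7, would not be chosen from control libraries, and Pttg1 and Ifltd1, among the 4, not from ligated libraries, these counts and medians are partly fixed by the choice, and nothing is read from them beside the shares of all genes. The fold changes are scaled by trimmed means of M values (TMM), and scaling by plain library totals moved the median of all genes to 0.19 in DBA and to 0.13 in C57. With library totals 13 DBA genes (11 higher and 2 lower) and 3 C57 genes (2 higher and 1 lower) were called. Over all 13504 tested genes, 3926 were then called in DBA and 2106 in C57. All other folds below are relative to the TMM scale, whereas CPM values are by library total.

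Many of these calls changed when 1 library was left out, in fits that also hold fewer libraries. With all libraries 9 of the 45 DBA genes were called, beside 3360 of 13504 tested genes. Without DBA control 3, 3 of the 45 were called, beside 1318 of 13619 tested genes. Without control 1 or S41, 5 were, beside 3371 of 13627 and 1811 of 13565 in turn. Without S42, 4 were (beside 1793 of 13569), and without control 2, 14 were (beside 5091 of 13579). Without the 3 libraries under 9 M counts, 3 were called, beside 950 of 13711. Without both S41 and S42, none of the 45 and 0 of 13660 tested genes were called by edgeR's test (9 of the 45 and 3278 of all had an unadjusted p under 0.05), so each DBA call below ends there. The 9 called genes kept their sign in that fit, with adjusted p from 0.0759 to 0.520. In C57, 1 of the 20 was called without ligated library 1 (beside 618 of 13576 tested genes) or without ligated library 3 (754 of 13584). Without control 1 or without control 2, 2 of the 20 were, beside 931 of 13619 and 886 of 13621 in turn. With all libraries 6 of the 20 were, beside 1796 of 13504.

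The DBA genes lower after ligation were Tchhl1 and Fmn1. Tchhl1, a relative of the hair follicle protein trichohyalin, was read at 5.71, 5.88, 6.33 and 10.6 CPM in controls and at 3.45, 2.65, 1.44 and 1.97 CPM in ligated mice, with a log2 fold change of -1.69 ± 0.32 (SE; edgeR adjusted p = 0.00406). Its groups did not overlap, and the call held in the other 14 alternatives; without both S41 and S42 the fold was -1.33 (edgeR adjusted p = 0.0981). Fmn1 fell from 248 ± 83 to 136 ± 12 CPM (SD, n = 4), with a log2 fold change of -1.04 ± 0.22 (edgeR adjusted p = 0.00647). Its highest ligated library, at 153 CPM, was below its lowest control, at 171 CPM. The fold of Fmn1 shrank to -0.52 and lost its call (edgeR adjusted p = 0.0673) without the libraries under 9 M counts, which hold its 2 highest values.

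Eno1b, a retrotransposed copy of the glycolytic enzyme enolase, was the DBA gene with the firmest rise. It was read at 7.63, 10.3, 6.59 and 6.5 CPM in controls and at 13.8, 13.9, 20.03 and 15.6 CPM in ligated mice, with a log2 fold change of 0.83 ± 0.17 (edgeR adjusted p = 0.00467), and the call held in the other 14 alternatives, while without both S41 and S42 the fold was 0.64 (0.112). The table joins exons of Eno1b from more than 1 chromosome. Its copy Eno1 is 99.5% identical and has no counts listed under that symbol, so the source of these reads is uncertain. C4a, the C4 paralog known in mice as sex-limited protein, was read at 1.36, 2.82, 1.45 and 1.02 CPM in controls and at 5.32, 7.43, 3.20 and 3.71 CPM in ligated mice, a log2 fold change of 1.29 ± 0.34 (edgeR adjusted p = 0.015). Its copy C4b, 96.0% identical, went from 50.7 ± 20.5 to 134 ± 25.1 CPM in DBA (SD, n = 4). The call of C4a ended without control 3 (edgeR adjusted p = 0.0512) and without the libraries under 9 M counts (0.0934).

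Col6a5, a chain of type VI collagen, was read at 2.42, 4.29, 2.64 and 2.44 CPM in DBA controls and at 4.36, 5.51, 24 and 10.04 CPM in ligated mice, and S41 and S42 were the high libraries. Its log2 fold change was 1.68 ± 0.53 (edgeR adjusted p = 0.0342), which fell to 0.97 without S41 and to 0.54 without both S41 and S42 (edgeR adjusted p = 0.520). The call ended without any one of controls 1, 3 and 4, S41 and S42 (adjusted p from 0.0640 to 0.144), in the DESeq2 Wald test (0.0829), with the DBA libraries alone (0.0625) and without the libraries under 9 M counts (0.275). The log2 fold change of Ccdc42, a protein of the sperm flagellum, was 1.17 ± 0.33 (edgeR adjusted p = 0.0193), from 0.987 ± 0.317 to 2.39 ± 0.476 CPM (SD, n = 4). That call ended without control 3, ligated 1 or S42 (adjusted p from 0.0506 to 0.0651) and without the libraries under 9 M counts (0.0579). Ccdc42 would not be chosen from control libraries alone.

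The other DBA genes called higher were C920025E04Rik, Ptprv and Tmem181c-ps. C920025E04Rik, a gene model in the class I region of chromosome 17, was read at 0.856, 2.65, 0.659 and 0 CPM in controls and at 3.63, 3.38, 3.25 and 3.6 CPM in ligated mice (log2 fold change 1.29 ± 0.41, edgeR adjusted p = 0.0314). Ptprv, a receptor tyrosine phosphatase of bone and testis, rose from 0.789 ± 0.314 to 2.59 ± 1.05 CPM (SD, n = 4; log2 fold change 1.41 ± 0.47, edgeR adjusted p = 0.0371). Tmem181c-ps rose from 2.96 ± 0.956 to 5.23 ± 0.521 CPM (0.66 ± 0.23, edgeR adjusted p = 0.0460), and its copy is 98.8% identical. All 3 calls ended without control 1, control 3, S40, S41 or S42. Those of C920025E04Rik and Tmem181c-ps also ended without ligated 1, and that of Ptprv without control 4. The adjusted p then lay between 0.0507 and 0.145. Without the libraries under 9 M counts the calls ended too (0.121 for C920025E04Rik, 0.152 for Ptprv and 0.133 for Tmem181c-ps), as did those of C920025E04Rik (0.0872) and Tmem181c-ps (0.0702) with the DBA libraries alone. The fold of C920025E04Rik moved to 2.32 without control 2, its highest control, and to 0.83 without the libraries under 9 M counts. Nor would C920025E04Rik and Ptprv be chosen from control libraries alone.

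In C57 the gene with the largest fold was Ifltd1, read at 4.26, 4.83, 2.74 and 1.15 CPM in controls and at 0.621, 0.583, 0.717 and 1.11 CPM in ligated mice. Its log2 fold change was -2.18 ± 0.45 (edgeR adjusted p = 0.0106), and it was called in all 15 alternatives. Neither Ifltd1, with a mean of 0.757 CPM in ligated C57 mice, nor Pttg1 would be chosen from ligated libraries alone. The choice therefore bears on the falls of both. Pttg1 fell from 68.2 ± 2.51 to 51.1 ± 7.0 CPM (SD, n = 4), a log2 fold change of -0.52 ± 0.14 (edgeR adjusted p = 0.0187). Rab6b fell from 30.5 ± 2.70 to 22.8 ± 2.80 CPM (-0.54 ± 0.14, edgeR adjusted p = 0.0223), and the 4 ligated libraries of each gene lay below its 4 controls. The calls of both ended without control 2, ligated 1 or ligated 3, and that of Rab6b also without control 1 (adjusted p from 0.0501 to 0.0857). With plain library totals the adjusted p was 0.0508 for Pttg1 and 0.0561 for Rab6b.

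Gm14403, which lies 19.0 kb from Gm14420 on chromosome 2, was read at 43.3, 30.9, 36.2 and 47.1 CPM in C57 controls and at 31.9, 28.1, 28.8 and 30.4 CPM in ligated mice, so the groups overlapped. Its log2 fold change was -0.51 ± 0.16 (edgeR adjusted p = 0.0398), and that of Gm14420 was -0.37 ± 0.26 (0.337). Gm14420 was called with the C57 libraries alone (adjusted p = 0.0139). Nxpe4, a neurexophilin-related gene, was read at 12.3, 12.4, 13.4 and 17.7 CPM in controls and at 22.8, 20.3, 24 and 19.3 CPM in ligated mice (0.52 ± 0.15, edgeR adjusted p = 0.0359). The non-coding 6430562O15Rik rose from 2.02 ± 0.871 to 4.46 ± 1.13 CPM (SD, n = 4; 1.02 ± 0.31, edgeR adjusted p = 0.0366). It shares 171 exon bases with Mrps27 on the other strand, so its reads are uncertain. The calls of these 3 genes ended without ligated 1, ligated 3 or control 1. They also ended without control 4, ligated 2 or ligated 4 for Gm14403, without control 2, control 3 or ligated 2 for Nxpe4, and without control 2, control 3 or ligated 4 for 6430562O15Rik (adjusted p from 0.0513 to 0.140). With plain library totals the call of Gm14403 ended too (edgeR adjusted p = 0.101).

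**Figure D3:**
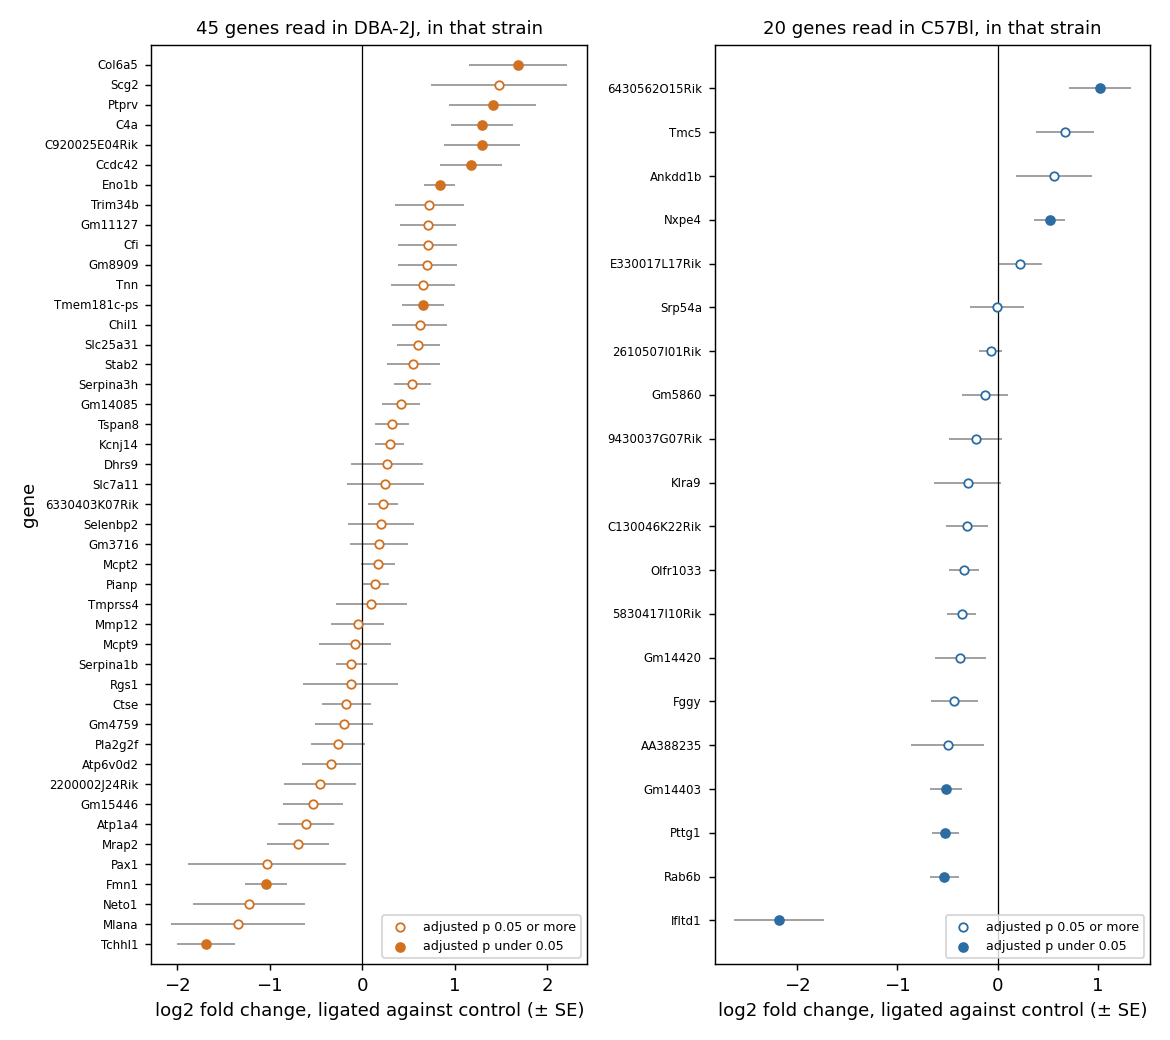
log2 fold change (± SE) after ligation of the 45 genes read in DBA and the 20 read in C57, each in its own strain; filled circles passed an adjusted p under 0.05 in edgeR's test. Filled circles number 9 at left and 6 at right, and Tchhl1 at left and Ifltd1 at right are the lowest.

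Several abundant genes did not pass the test. Mmp12 had a log2 fold change of -0.05 ± 0.28 (edgeR adjusted p = 0.908), and its sign turned to 0.40 without DBA control 4 and to 0.12 without S42. Kcnj14 had 0.30 ± 0.15 (0.159), and its CPM groups, which are by library total, did not overlap. With library totals in place of TMM Kcnj14 was called (edgeR adjusted p = 0.0481). Stab2 had 0.55 ± 0.28 (0.157), which fell to 0.28 without DBA control 3. Mrap2 had -0.69 ± 0.34 (0.146), Mcpt2 0.17 ± 0.18 (0.514) and Chil1 0.62 ± 0.30 (0.128). Without both S41 and S42 the fold of Mrap2 was -0.27 (edgeR adjusted p = 0.657), and the adjusted p of Chil1 was 0.497. Serpina3h had 0.54 ± 0.20 (0.0571) and Slc25a31 0.61 ± 0.23 (0.0658), and both were called without DBA control 2 (adjusted p = 0.00632 and 0.0314). Both were also called with library totals (edgeR adjusted p = 0.0241 and 0.0291), and Serpina3h in the DESeq2 Wald test (0.0371). Without both S41 and S42 the edgeR adjusted p was 0.417 and 0.422. Cfi, the complement control protease factor I, had 0.71 ± 0.32 (0.117) and Scg2 1.48 ± 0.74 (0.150); they were called without control 2 (0.0451) and without control 4 (0.0367) in turn. The fold of Cfi was 0.45 without control 1 (0.306), and that of Scg2, with 1 library left out, ran from 0.90 without S41 (0.411) to 2.40 without control 4. Without both S41 and S42 the fold of Scg2 was 0.67 (edgeR adjusted p = 0.656). 5830417I10Rik had -0.36 ± 0.15 in C57 (0.104) and was called without ligated 4 (0.0315).

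Annotation was one thing the genes shared that the choice did not use. Clone or model names were borne by 19 of 65 (29.2%), by 9 of 45 DBA genes and 10 of 20 C57 genes, against 5.66% of the table. GENCODE calls 48 of the 61 matched genes protein coding (78.7%, against 96.6% of matched genes in the table), 9 non-coding RNA (14.8% against 2.65%) and 4 pseudogenes (6.56% against 0.637%). The 9 include C4a and Ptprv, which GENCODE lists as processed transcripts and RefSeq as transcribed pseudogenes. Of the 17 matched C57 genes, 6 were non-coding. By symbol family, 2 of 65 were serpins (0.224% of the table were serpins or kallikreins) and 2 solute carriers (1.73% of the table). A further 1 was a lectin-like or natural killer receptor (0.166%) and 1 a named pseudogene (0.159%). None bore a zinc finger symbol (2.87% of the table), but genes with model names cannot be sorted this way. Gm15446, for example, has the zinc finger gene Zfp932 as its copy (97.4% identity). All of these shares are descriptions with no test.

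Apart from Eno1b the 65 genes lie on 16 chromosomes, and 6 runs place genes within 1 Mb of each other. Chromosome 1 holds 7, all read in DBA: Ctse, Chil1 and Ptprv among them, with Chil1 and Ptprv 918 kb apart. On chromosome 17, Gm11127, C920025E04Rik and Gm8909 follow each other at 50.7 and 52.8 kb in the class I region, all read in DBA. Gm11127 was read at 4.71, 4.76, 4.22 and 0.813 CPM in DBA controls and at 8.22, 5.51, 5.91 and 8.70 CPM in ligated mice, and Gm8909 at 3.07, 3.53, 3.03 and 0.609 CPM and at 5.09, 5.44, 3.41 and 6.21 CPM. DBA control 4 was the lowest library for each of these 3 genes. Their folds after ligation were 0.71 ± 0.30 (edgeR adjusted p = 0.0963) for Gm11127 and 0.70 ± 0.31 (0.105) for Gm8909. Elsewhere on chromosome 17, AA388235 and C4a lie 824 kb apart and were read in opposite strains, AA388235 in C57 at 0.525 to 1.58 CPM.

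The neighbours of these genes are described next. The nearest listed genes on either side numbered 121, with a median strain fold of 1.24, and 24% of them differed at least 2-fold, against a median of 1.16 and 7.34% of all other genes. Some neighbours were higher in the strain that reads the chosen gene, such as Tchh, a hair follicle protein, beside Tchhl1 (4.70 CPM in DBA and 0.765 in C57). Others ran the other way: Lgr6, beside Ptprv, stood at 5.72 CPM in DBA and 43.9 CPM in C57. Some of these neighbours are copies or were themselves left out by symbol, so the shares are given with no test.

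At the edge of the choice the values were continuous. Just inside the ratio of 16 lay C920025E04Rik (16.2), Pianp (16.5) and Gm3716 (16.7) for DBA, and just outside Rxfp1 (15.8), Ly6k (15.5) and Ccl3 (15.1). For C57 the nearest inside were Srp54a (18.4), Rab6b (19.0) and Pttg1 (20.01), and outside 2610035D17Rik (13.8), Trpm3 (13.6) and 2210407C18Rik (12.5). Chosen from control libraries alone the set would hold 66 genes, of which 57 are shared with the 65, and from ligated libraries alone 60, of which 54 are shared. Without both S41 and S42 it would hold 65, of which 60 are shared.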

How the data were processed

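RNA was extracted with RNeasy Plus Mini and libraries were prepared with KAPA mRNA Hyperprep, per the labels' protocols. The submitters' processing notes name mm10, STAR 2.5.2b, featureCounts, Subread 1.5.1 and edgeR; which annotation and strand setting were used is not given in the sources used here. The authors deposited whole-number raw counts per gene and library, per the file headers, with gene coordinates and length (no gene under 45 counts in total). The other 16 per-sample columns, normalized values on a log2 scale, were not used. The 65 genes, the gene lists and the rule for named genes were chosen with earlier results of these data known.

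CPM were computed from library totals, 4.92 to 22 M (M, 1000000 counts), so 1 CPM stands for few reads in the shallow libraries (3 under 9 M); floors of 3 counts cover counting error only. Named were the genes with the most reads in each strain, those called, in runs, overlapping, near the threshold or in a symbol family; the melanocyte and mast cell lists were added after values had been seen. Ligation was tested with edgeR 4.0.16 in R 4.3.3 (filter by group, TMM, robust quasi-likelihood fit of 4 group means over 16 libraries, two-sided, Benjamini-Hochberg adjustment over 13504 genes). SE is the log2 fold change over the square root of F. Nothing says whether the mice of a group shared litters, and p-values set a difference between groups against the spread between these samples. Alternatives were other scalings, DESeq2 1.42.0, no filter, libraries of 1 strain, left-out libraries and a replicate block. Copies were sought with blastn 2.17.0 among GENCODE M21 transcripts of GRCm38, the assembly of mm10. The edgeR step was tested on simulated counts.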

Additional observations from a re-analysis of the deposited data

Results flagged for a closer look

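In groups of 4 libraries, a library was looked for whose gap to the nearest other, as a share of the group's range, exceeded Dixon's 95% critical value, in the strain that reads each gene. Chance flags about 1 in 20 groups, and 11 of the 130 groups looked at had such a library. In DBA control 4, the shallowest library, these were Pax1 at 14.6 CPM (the other controls 4.85 to 5.94), Tchhl1 at 10.6 CPM (5.71 to 6.33), 2200002J24Rik at 2.84 CPM (1.06 to 1.28), Gm15446 at 1.42 CPM (1.18 to 1.21), Gm11127 at 0.813 CPM (4.22 to 4.76) and Gm8909 at 0.609 CPM (3.03 to 3.53). The first 4 were high and the last 2, from 1 run on chromosome 17, were low. Of the other DBA libraries, control 2 was high for Col6a5 at 4.29 CPM (2.42 to 2.64), S41 was low for Selenbp2 at 2.504 CPM (4.41 to 4.78) and S42 was low for Rgs1, a regulator of G protein signalling, at 0.928 CPM (2.24 to 2.41). In C57, control 1 was high for Klra9 at 3.65 CPM (1.58 to 1.83) and ligated 4 was high for 5830417I10Rik at 50.2 CPM (36.3 to 38.0). The part of depth in these values was not tested.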

How the results depend on the processing

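The set of 65 genes grew to 115 at a ratio of at least 8 and shrank to 40 at 32 and to 41 with 0.1 added to both means; TMM totals gave 61, a mean of at least 2 CPM 49, medians 69, and leaving out 1 library 60 to 67. Over all tested genes, the 3360 calls in DBA became 1648 with the DBA libraries alone and 950 without the libraries under 9 M counts, and ran from 1318 (without control 3) to 5091 (without control 2) when 1 library was left out. The 1796 calls in C57 became 2829 without the libraries under 9 M counts and ran from 618 (without ligated 1) to 1869. With library totals the split turned from 1501 higher and 1859 lower to 3105 and 821 in DBA, and from 978 and 818 to 1680 and 426 in C57. Of the 45 DBA genes, 9 were called, 3 without the libraries under 9 M counts, and 3 to 14 without 1 library; of the 20 C57 genes, 6 were called, 3 with library totals and 1 to 5 without 1 library. The fold of Mmp12 turned to 0.13 with library totals, 0.40 without DBA control 4, 0.12 without S42 and 0.44 without the libraries under 9 M counts. Without 1 library it ran from -0.29 to 0.40. Without both S41 and S42, a setting chosen after seeing the data, edgeR called 0 genes in DBA and 0 of the 45, and the fold of Mmp12 was 0.067. The sign turned under some alternative for 15 of the 65 genes, each with a log2 fold change of at most 0.33 in size; Mmp12 was the only one of them whose fold the report gives. The cause of these changes was not tested, and the left-out fits also hold fewer libraries. The replicate numbers of the C57 samples do not pair them (correlations of same-numbered replicates -0.06, -0.04, 0.01 and -0.07). The mouse numbers in the library names are not shared between controls and ligated mice. A block by replicate number in C57 left 1732 calls and 7 of the 20 genes. No paired analysis was possible in DBA because only replicate number 1 could be placed in both groups. At these depths, a gene with under 3 counts in a strain cannot be told from absent.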
